A study of Mus musculus with 12 samples.

Results

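The cap-binding eIF4 factors and their inhibitors, the 4E-binding proteins (4E-BPs), were examined as the mRNAs of 10 mouse genes. These were Eif4e and Eif4e2, Eif4g1, Eif4g2 and Eif4g3, Eif4a1 and Eif4a2, Eif4b, Eif4ebp1 and Eif4ebp2. They were chosen by name as genes of the eIF4 complex and its inhibitors, by a rule that uses no measured value. Transcript values were summed per gene symbol. All 10 genes were found among 55073 symbols, and all 10 had an expected count of at least 10 in every library, as did 15002 genes in all (called detected genes here).

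The study asked how loss of Larp1, an RNA-binding protein that binds the capped 5′ ends of mRNAs with a terminal oligopyrimidine (TOP) motif, changes mRNA levels in the mouse brain. The labels describe 12 cortex samples, of which 6 are Larp1 KO (Nestin-Cre;Larp1-flox/flox) and 6 are Larp1 WT (Nestin-Cre), each given as 3 replicates in 2 parts. The mice were male on a C57BL/6J background, and posterior cortex was sampled. The controls carry the Nestin-Cre transgene too. Its promoter drives recombination in the neural lineage, so cells of other lineages, such as vessels and microglia, are expected to keep Larp1 in KO mice. This was not examined here. The processed values come from 6 rRNA-depleted RNA-seq libraries named by mouse number (678, 687, 688, 698, 700 and 703). No label ties a mouse number to a genotype, so no library was assigned to Larp1 KO or Larp1 WT, no test between genotypes was made, and every result below describes the 6 mice without their genotype.

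In cap-dependent translation, eIF4E binds the 5′ cap of an mRNA and docks on the scaffold eIF4G, which also holds the RNA helicase eIF4A. Together they form the eIF4F complex, which prepares the 5′ end for the small ribosomal subunit, and eIF4B stimulates the helicase. The 4E-BPs occupy the eIF4G-binding surface of eIF4E until mTORC1, a kinase complex that senses nutrients and growth signals, phosphorylates them. In neurons this step is known for its role in the protein synthesis that follows synaptic activity, and 4E-BP2 is known as the main 4E-BP of the mammalian brain.

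Depth was similar across the libraries, with totals of 34689262 to 44463362 expected counts, of which the 10 genes together held 48134 to 66196. Expected counts are the read numbers that RSEM assigns to each transcript, and TPM divides them by transcript length and scales each library to the same total. Nuclear protein-coding genes held 22.7% of TPM in mouse 700 and 28.8% in mouse 703, and the median log2 TPM of all detected genes differed from the median library by −0.17 in mouse 700 and by 0.19 in mouse 703. TPM was therefore used to compare genes within a library, and library-scaled counts (TMM-scaled CPM, called CPM below) to compare libraries. All 4 neuronal markers (summed TPM 1215 to 1723) and all 4 markers of excitatory cortical neurons (409 to 569) were detected, none of 3 liver markers was (0.48 to 2.24), oligodendrocyte markers summed to 375 to 598 and blood markers to 1.43 to 18.0, and 2 of 3 skeletal muscle markers (2.12 to 4.66) and 1 of 3 cerebellar markers (3.77 to 10.6) were, at low levels. The part of these differences in the results was not tested.

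Because Larp1 acts on TOP mRNAs, the annotated 5′ ends of the 10 genes were read first. A TOP start was taken as a C at the first base followed by at least 4 pyrimidines. At the start of the isoform with the highest median TPM, 0 of the 10 genes had one, against 2.35% of 13618 detected nuclear protein-coding genes (320). The 5′ ends below show where the longest pyrimidine run beginning with C, in capitals, lies in the first 25 bases (GENCODE M21 on GRCm38, 5′ to 3′). Eif4b-201 is shown for the long run that begins at base 11, Eif4g1-201 for a run of 6 bases that begins at base 6, Eif4g2-206 and Eif4e2-202 for shorter runs, Eif4e-201 and Eif4ebp2-201 for 5′ ends with almost no run, and Eif4a2-211 as a minor isoform that does meet the definition.
Eif4b-201: cgccgcgccaCCCCCTCgcgctgct
Eif4g1-201: ctccgCCCTCTgcgccggtcacgtg
Eif4g2-206: cacgCCTCagcgccagcagcgagcc
Eif4e2-202: aaccggaagtagccgggCCCTTagc
Eif4e-201: taaaaCagcagcggaggcggaggga
Eif4ebp2-201: cgagagcaggcgagttgagagCCga
Eif4a2-211: CTTTTCagtcgggcgctgagtgggt

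These starts lie on chromosome 15 at 102073773 (Eif4b-201, plus strand), chromosome 16 at 20672723 (Eif4g1-201, plus strand), chromosome 7 at 111083017 (Eif4g2-206, minus strand), chromosome 1 at 87213914 (Eif4e2-202, plus strand), chromosome 3 at 138526179 (Eif4e-201, plus strand), chromosome 10 at 61452661 (Eif4ebp2-201, minus strand) and chromosome 16 at 23107758 (Eif4a2-211, plus strand). The run of Eif4b spans 7 bases, and the RefSeq start of Eif4b (GRCm38.p6) is at the same base. The RefSeq start of Eif4g1 lies at 20672727, which places its run of 6 pyrimidines at base 2. In Eif4g1-221, with a median of 14.4% of the TPM of Eif4g1, a run of 7 began at base 4. RefSeq promoter windows were at hand for 8 of the 10 genes, and 0 of the 8 began with a TOP motif, against 2.51% of 32851 windows. A match or its absence concerns the letters at an annotated base only. The paper lists Eif4b with the classical TOP mRNAs that it found depleted in Larp1 KO cortex. That depletion could not be examined here without genotypes. The paper also scored TOP motifs at measured transcription start sites, which were not used here. The absence of a match here therefore does not make a gene a non-TOP mRNA. For Eif4a2-203 and Eif4e-205, which have the highest TPM of their genes, the annotated 5′ UTR is 0 bases and 1 base long, so that those models begin at the coding sequence and not at a transcription start. Their lack of a match therefore says nothing about the true 5′ ends. For Eif4ebp1 the isoform read was Eif4ebp1-202, a non-coding model that starts at 27264414. The coding Eif4ebp1-201 starts upstream at 27260329 and had no TOP start either.

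When every annotated isoform was read, 2 of the 10 genes had a TOP start, against 10.7% of detected protein-coding genes. In Eif4a2 these were Eif4a2-211, a retained-intron model with a median of 0.79 TPM, the coding model Eif4a2-224 with the same start, and Eif4a2-215, the last 2 at 0 TPM in every library. In Eif4g2 it was Eif4g2-214, a fragment tagged as having no known 5′ end, with a median of 0.25 TPM. Eif4g2 encodes DAP5, an eIF4G relative that lacks the eIF4E-binding site, and its main coding isoforms Eif4g2-206, Eif4g2-203 and Eif4g2-213 begin their annotated coding sequence with GTG. So does Eif4g3-215, a model with no annotated 5′ UTR, while Eif4g3-202 and the highest coding isoforms of the other 8 genes begin with ATG.

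The levels of the 10 mRNAs spread widely. By median TPM the order was Eif4a2 (159), Eif4g2 (143), Eif4a1 (74.9), Eif4g1 (55.3), Eif4g3 (46.0), Eif4e (44.7), Eif4b (38.0), Eif4e2 (14.4), Eif4ebp2 (11.5) and Eif4ebp1 (2.27). Of the 9 neighbouring pairs in this order, 8 stood in the same order in 6 of 6 libraries. The exception was Eif4g3 and Eif4e, where Eif4g3 was the higher in 2 of 6 libraries, so these 2 genes were not separated. An alike order did not always mean a clear gap. The lowest ratio within a library was 1.01 for Eif4e over Eif4b and 1.039 for Eif4a2 over Eif4g2. The ranges over the libraries did not overlap between Eif4g2 and Eif4a1, Eif4b and Eif4e2, Eif4e2 and Eif4ebp2, or Eif4ebp2 and Eif4ebp1, and overlapped for the other 5 pairs. Mouse 703 was the highest library in TPM for 7 of the 10 genes and for 53.0% of all detected genes, but in CPM for 3 of the 10 and 20.9% of all. Together the 10 genes held 0.228% to 0.244% of nuclear protein-coding TPM in each library.

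**Figure D1:**
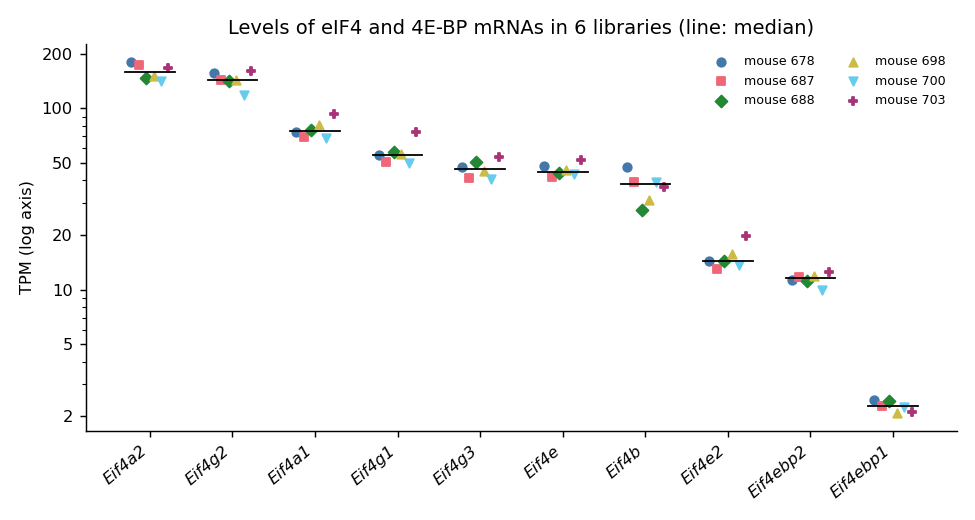
TPM (log axis) of each gene in each of the 6 libraries, with the median over the libraries as a line. Eif4a2 and Eif4g2 lie at 118 to 181 TPM and Eif4ebp1 at 2.08 to 2.47, and mouse 703 is the highest library for 7 of the 10 genes.

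The cap-binding protein eIF4E is encoded by Eif4e (ENSMUSG00000028156, chromosome 3, 138526179 to 138559696, plus strand). Its TPM in mice 678, 687, 688, 698, 700 and 703 (the order used throughout) was 47.7, 41.5, 44.0, 45.4, 43.5 and 51.8. In CPM it read 66.4, 68.1, 68.1, 64.6, 64.8 and 64.9, which is nearly level, with a highest-to-lowest ratio of 1.055. Of the detected genes of like mean level, 0.798% (4 genes) had a smaller ratio, and their median ratio was 1.205. In TPM the ratio of Eif4e was 1.25, with mouse 703 the highest library.

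Eif4e2 encodes 4EHP, a cap-binding protein that does not bind eIF4G and is known to repress translation with its GIGYF partners. It measured 14.4, 13.0, 14.4, 15.7, 13.7 and 19.7 TPM. Mouse 703 was highest and the other libraries lay between 13.0 and 15.7. In CPM that gap narrowed to a range of 28.6 to 30.8 (ratio 1.079), a ratio above that of 1.6% of genes of like level. Within each library Eif4e2 was 0.302 to 0.380 times Eif4e.

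The scaffold mRNAs were Eif4g1 and Eif4g3, which encode eIF4GI and eIF4GII, and Eif4g2, whose product works without eIF4E. Eif4g1 (chromosome 16, 20668313 to 20692884, plus strand) measured 54.9, 50.7, 57.7, 55.6, 49.8 and 73.6 TPM. Mouse 703 stood far above the others by Dixon's ratio, 1 of the 10 genes so placed in TPM against 7.04% of all detected genes. In CPM its values were 196, 186, 208, 198, 203 and 231, with mouse 703 still the highest and a ratio of 1.242.

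Eif4g3 measured 47.1, 41.4, 50.5, 45.0, 40.8 and 53.9 TPM. With all isoforms included, it was 0.733 to 0.876 times Eif4g1 in TPM within a library, lowest in mouse 703, and below Eif4g1 in all 6. That order depended on short models of Eif4g1. The long isoform Eif4g1-201 held a median of 71.7% of the counts of Eif4g1 but 48.6% of its TPM. It had 24.2 to 37.6 TPM, against 15.1 to 21.1 for Eif4g3-202 and 11.9 to 16.8 for Eif4g3-215, which are both long. Which of these 2 mRNAs was the more abundant is therefore not settled here. Eif4g2 (chromosome 7, 111067750 to 111083030, minus strand) was 2.18 to 2.85 times Eif4g1 in TPM, with 157, 143, 142, 143, 118 and 161 TPM. In CPM the highest-to-lowest ratio was 1.18 for Eif4g3 and 1.217 for Eif4g2, close to the 1.202 and 1.204 of genes of like level. Eif4g1 and Eif4g3 summed to 2.08 to 2.46 times Eif4e, all isoforms included. Such ratios to Eif4e, here and for Eif4e2 and the helicases, depend on its short models. Its long isoform Eif4e-201 held a median of 68.0% of its counts but 20.4% of its TPM.

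The helicase eIF4A has a pair of closely related cytoplasmic forms, eIF4A1 and eIF4A2. Eif4a2 (chromosome 16, 23107444 to 23114136, plus strand) measured 181, 173, 147, 150.5, 141 and 168 TPM. Its CPM was 252, 258, 209.7, 207, 236 and 207, with mice 678 and 687 highest (ratio 1.25). Eif4a1 (chromosome 11, 69666936 to 69672423, minus strand) measured 74.2, 69.3, 75.6, 80.8, 68.3 and 93.4 TPM, and 110.3 to 127 CPM (ratio 1.152).

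Eif4a2 was the higher of the pair in every library, and by how much differed between mice. The ratio of Eif4a2 to Eif4a1 was 2.44, 2.50, 1.95, 1.86, 2.07 and 1.79 in TPM, highest in mice 678 and 687. Both helicase mRNAs together were 4.82 to 5.84 times Eif4e. Sequence shared with other genes bears on these values, since 65.3% of the 50-base words of Eif4a1-213 also occur elsewhere, mostly in the processed pseudogene Eif4a-ps4 (64.9% of the words, 2.4 to 3.55 TPM). For Eif4a2-203 the share was 25.8%, with Gm2999 the largest part (0.27 to 1.12 TPM), and neither helicase shared a 50-base word with the other. For Eif4e-205 it was 38.1%, largely with Gm7327 (0.31 to 1.02 TPM). The reads that RSEM gave to these pseudogenes may belong to the parent genes, or the reverse. In this respect those 3 levels are less certain than the others, whose shares were at most 1.34%. Only the isoform with the highest median TPM was read for each gene, and Eif4e-205 held a median of 15.4% of the counts of Eif4e.

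Eif4b, whose product stimulates eIF4A and binds RNA, differed most between libraries. Eif4b (chromosome 15, 102073773 to 102097173, plus strand) measured 47.3, 39.4, 27.4, 31.3, 39.3 and 36.6 TPM. In CPM the values were 160.4, 146, 100.4, 105, 154 and 111, highest in mouse 678 and lowest in mouse 688, with a ratio of 1.598. The exact 95% Poisson intervals of the counts in the highest and lowest library gave 46.1 to 48.4 TPM and 26.6 to 28.3 TPM, which did not overlap. In TPM that was so for 9 of the 10 genes, Eif4ebp1 being the exception. How many of all detected genes it holds for was not counted. Such intervals cover counting error only, and TPM also differs between libraries as a whole. Eif4e was among the 9, although its CPM ratio was 1.055. Against the summed helicase mRNAs, Eif4b was 0.185, 0.162, 0.123, 0.135, 0.188 and 0.140.

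A gene was called most variable when the SD of its log2(CPM + 1) over the 6 libraries, less the running median SD of genes of like mean, fell in the top 5% of detected genes. Eif4b was the only one of the 10 genes in that class, 1 of 10 against 5.01% of the 15002 detected genes. It stood near the edge, at place 710 of 751, with an excess of 0.20 on the log2 scale. The next of the 10 was Eif4a2, with an excess of 0.05 at place 3646. Eif4b left the class when mouse 678, 688 or 698 was left out, with a pseudocount of 0.25, or in log2(TPM + 1), which give 0 of the 10 genes. The median highest-to-lowest CPM ratio of the 10 genes was 1.198, against 1.306 over all detected genes.

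**Figure D2:**
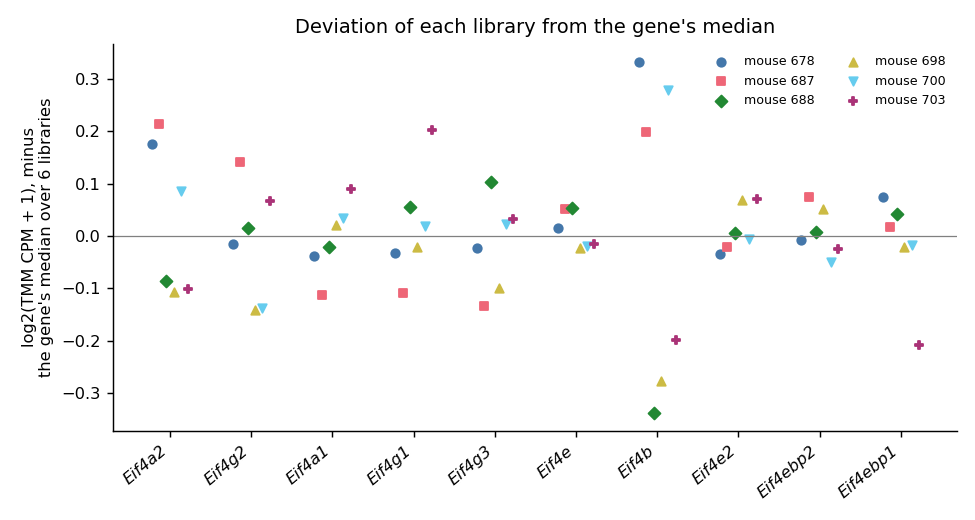
Log2(CPM + 1) of each library minus the median of the gene over the 6 libraries. Eif4b runs from −0.34 in mouse 688 to 0.33 in mouse 678, while the 6 libraries of Eif4e lie within −0.02 and 0.05.

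**Figure D3:**
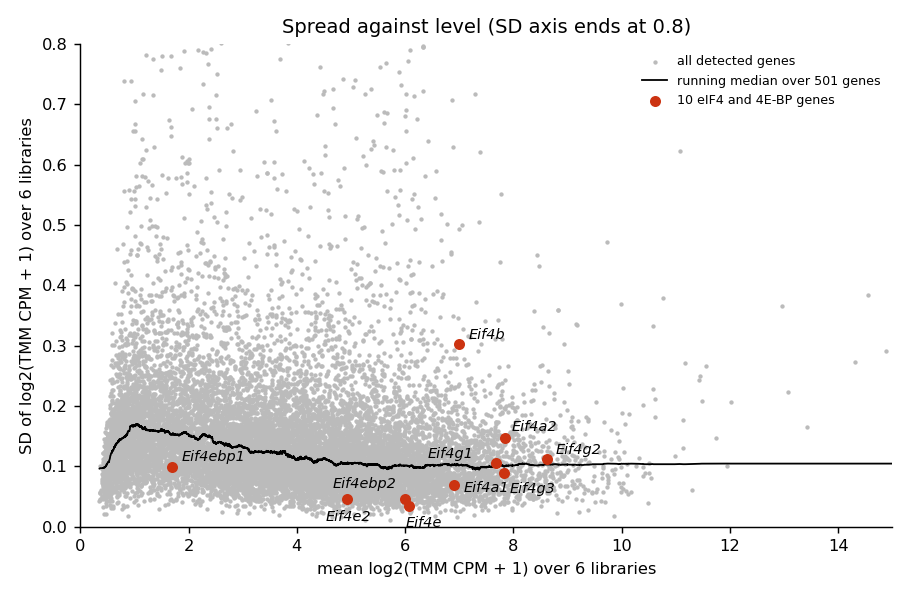
SD over the 6 libraries of log2(CPM + 1) against its mean for all 15002 detected genes (grey), with the 10 genes in red and the running median as a line. Eif4b lies well above the line, Eif4e, Eif4e2 and Eif4ebp2 lie below it, and 59 genes have an SD beyond the axis.

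The 5 detected protein-coding genes whose pattern over the 6 libraries was most like that of Eif4b, by the root mean square difference of centred log2(CPM + 1), were Naca (0.04), Rpl15 (0.04), Eef2 (0.05), Hnrnpa1 (0.05) and Rpl41 (0.05). Rpl15 and Rpl41 encode proteins of the large ribosomal subunit, Eef2 the translocation factor of elongation, Naca a chaperone subunit at the ribosome exit and Hnrnpa1 a nuclear RNA-binding protein. Their highest-to-lowest CPM ratios ran from 1.549 to 1.683, near that of Eif4b because they were chosen for likeness to it. Among the 10 genes themselves, the most alike patterns were those of Eif4e and Eif4ebp2 (0.04), Eif4a1 and Eif4e2 (0.04), and Eif4a1 and Eif4g1 (0.05). Eif4e, Eif4e2 and Eif4ebp2 had CPM ratios of at most 1.09, so their patterns hold little variation to compare.

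By TPM over all isoforms, the inhibitors were the scarcest of the 10 mRNAs. The place of Eif4ebp2 below Eif4e2 depended on counting every isoform. Eif4e2-202, the isoform of Eif4e2 with the highest median TPM, had 3.92 to 6.68 TPM, against 9.03 to 12.54 for Eif4ebp2-201. Eif4ebp2 (chromosome 10, 61428491 to 61452661, minus strand) measured 11.3, 11.8, 11.1, 11.9, 9.91 and 12.5 TPM. Its CPM ran from 60.3 to 65.8 (ratio 1.09), and 4.19% of genes of like level had a smaller ratio. Eif4ebp1 (chromosome 8, 27260329 to 27276674, plus strand) measured 2.47, 2.29, 2.43, 2.08, 2.25 and 2.10 TPM, on 73 to 102 counts a library. Of detected nuclear protein-coding genes, 75.0% had a higher median TPM than Eif4ebp1 and 35.1% a higher one than Eif4ebp2, whereas 1.4% exceeded Eif4a2 and 8.79% exceeded Eif4e.

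Eif4ebp2 was 4.40 to 5.97 times Eif4ebp1 within a library. With protein-coding isoforms alone, which leave out most of Eif4ebp1, the ratio was 14.9 to 23.6. Both 4E-BP mRNAs together were 0.289, 0.338, 0.308, 0.308, 0.279 and 0.283 times Eif4e in TPM. That order depended on the short models of Eif4e. With coding isoforms alone the ratio was 0.246 to 0.299, but against the long isoform Eif4e-201 alone the coding 4E-BP isoforms were 1.19 to 1.43 times as high, so which mRNA was the more abundant is not settled here. These and the other ratios, and the versions by isoform, were chosen after the levels were seen, and mRNA ratios do not give protein ratios.

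**Figure D4:**
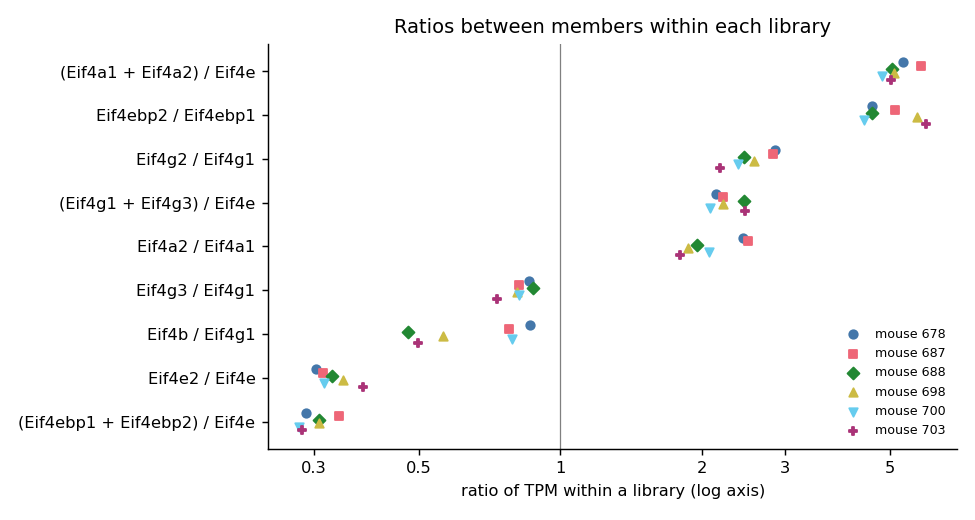
Ratios of TPM between the genes within each library (log axis), with a line at 1. Eif4a2 over Eif4a1 runs from 1.79 to 2.50 and Eif4b over Eif4g1 from 0.475 to 0.86, and the summed 4E-BP mRNAs, all isoforms included, stay at 0.279 to 0.338 of Eif4e.

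Isoform estimates placed part of these levels in models not annotated as protein-coding. Across the 10 genes, isoforms annotated as protein-coding held 83.5% to 87.0% of TPM (median 85.2%), and a median of 93.8% of expected counts, since short models weigh more in TPM. Eif4e2 and Eif4ebp2 have coding isoforms only. In Eif4a2, isoforms annotated for nonsense-mediated decay held 24.9%, 23.4%, 25.2%, 22.2%, 16.8% and 22.9% of TPM, lowest in mouse 700. Eif4a2-210 was the main such isoform, with 16.6 to 25.6 TPM. In Eif4g2, retained-intron models held 18.4% to 23.5% of TPM but only 2.77% to 4.3% of expected counts.

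Eif4ebp1 stood apart in this respect. Its non-coding model Eif4ebp1-202 (798 bases, annotated as processed transcript) held 70.5%, 71.2%, 71.2%, 61.5%, 81.3% and 69.1% of TPM. The coding isoform Eif4ebp1-201 had only 0.42 to 0.80 TPM. By expected counts the coding isoform held a median of 54.2%, and with 73 to 102 counts a gene the split between the isoforms is imprecise.

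In Eif4e the isoform shares depended on the unit. The short model Eif4e-205 (729 bases) held a median of 39.3% of TPM but 15.4% of counts. The long Eif4e-201 (4991 bases, with a 3′ UTR of 4195) held 20.4% of TPM but 68.0% of counts. In some other genes a single isoform led: Eif4a1-213 with 91.0% of TPM, Eif4b-201 with 90.6% and Eif4ebp2-201 with 98.0%. Elsewhere the highest median shares were lower: Eif4g1-201 48.6%, Eif4g2-206 47.7%, Eif4a2-203 43.4%, Eif4g3-202 38.9% and Eif4e2-202 36.0%. In mouse 698 Eif4g3-215 (34.7%) exceeded Eif4g3-202 (33.6%), and in mouse 703 Eif4e2-208 (34.8%) exceeded Eif4e2-202 (33.9%). By counts Eif4a2-201 held a median of 33.2% and Eif4a2-203 32.3%, and Eif4e2-202 held 59.6%.

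**Figure D5:**
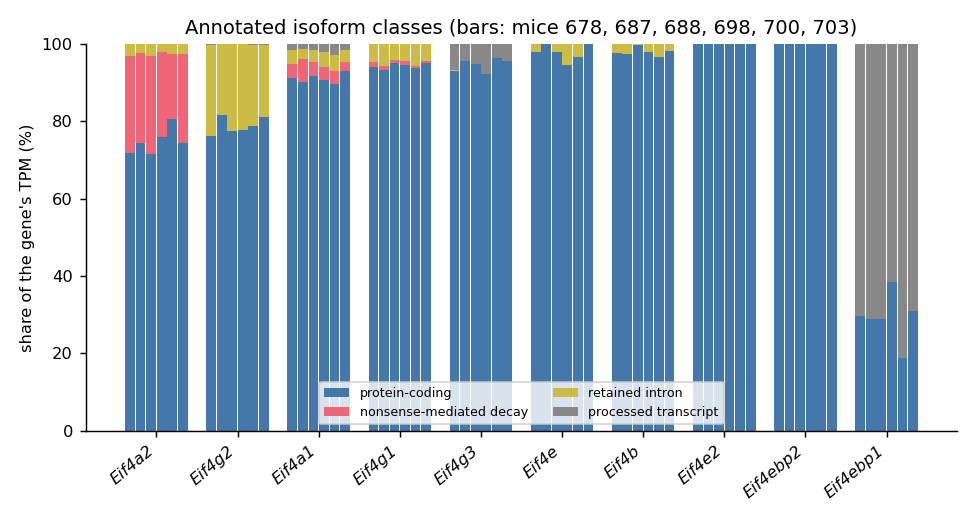
Share of each gene's TPM (%) by annotated isoform class, with a bar for each library in the order 678, 687, 688, 698, 700 and 703. Nonsense-mediated decay isoforms hold 16.8% to 25.2% of Eif4a2, retained-intron models 18.4% to 23.5% of Eif4g2, and the processed transcript 61.5% to 81.3% of Eif4ebp1. By expected counts, not shown, the retained-intron models hold 2.77% to 4.3% of Eif4g2 and the processed transcript 35.8% to 60.1% of Eif4ebp1.

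Small nucleolar RNA genes lie inside 4 of the genes on the same strand and were not part of the sums, and in 3 of the 4 (all but Eif4g1) at least 1 had a median TPM of 1 or more. Gm22988 in Eif4a1 was listed at 116 to 218 TPM on 47 to 105 counts, Gm26447 in Eif4a2 at 161 to 347 TPM on 34 to 88 counts, and Gm23262 in Eif4g2 at 156 to 253 TPM on 140 to 253 counts. Gm25835 in Eif4a1 had 0 to 14.6 TPM. Rfc4 overlaps the 3′ end of Eif4a2 on the opposite strand and had 0.71 to 1.31 TPM.

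Other genes of the pathway were taken from a fixed list of 5 family members and 15 partners and regulators. None of the 3 detected family members and none of the 15 partners and regulators was among the most variable genes (background 5.01%). Eif4h, which encodes an eIF4B relative that also stimulates eIF4A, had 69.8 to 98.6 TPM and a CPM ratio of 1.074. Eif4b over Eif4h was accordingly 0.543, 0.503, 0.333, 0.369, 0.563 and 0.371. Eif4a3, the helicase of the exon junction complex, had 16.6 to 22.7 TPM, and Eif4e3, a further cap-binding form, 4.68 to 6.47 TPM. Eif4e1b, the oocyte form of eIF4E, was at 0 counts in all 6 libraries and Eif4ebp3 at 0 in 5 of 6, with 12 counts in mouse 688.

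Of the partners, Cyfip2, which encodes a subunit of the WAVE actin-regulating complex, was the highest with 156 to 201 TPM, above Eif4e in every library. Its relative Cyfip1, which encodes an eIF4E-binding partner of FMRP, had 11.6 to 17.8 TPM and Fmr1 itself 9.52 to 13.0 TPM. Pdcd4, an inhibitor of eIF4A, had 25.8 to 34.8 TPM and Eif4enif1, which encodes the eIF4E transporter 4E-T, 16.0 to 19.5 TPM. The eIF4E kinases Mknk1 and Mknk2 had 5.31 to 7.31 and 7.34 to 9.64 TPM. The partners of 4EHP were led by Gigyf2 (32.0 to 41.0 TPM), with Gigyf1 at 5.85 to 8.50 and Zfp598 at 4.67 to 6.45 TPM. Angel1, another eIF4E-binding protein, was the scarcest with 1.19 to 2.52 TPM and had the widest CPM ratio of the list, 1.513. The remaining members Paip1, Paip2, Ddx3x and Angel2 had CPM ratios of 1.137 to 1.204.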

How the data were processed

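RNA-seq files of 6 mice were used, and that they are cortex libraries was inferred from the labels. Per the methods, adapters were removed by the authors with cutadapt, STAR was the aligner (mm10) and RSEM the quantifier, and no versions were given in those sources. The labels name TRIzol and a directional NEB Ultra II kit, while the methods name RNEasy columns. The authors deposited expected counts per transcript, not normalized, and TPM for the same 142351 transcripts, scaled to a fixed total in each library. A further 18 value columns were not used.

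Transcripts were matched to GENCODE M21 (99.36% matched) and summed per gene, and expected counts were rounded to whole numbers after summing. Counts were scaled by TMM in edgeR 4.0.16 (R 4.3.3), with DESeq2 1.42.0 size factors as an alternative. Genes with at least 10 counts in every library were kept, and a pseudocount of 1 was used. The most variable class was the top 5% of excess SD, and a library was called far from the others where Dixon's ratio exceeded its 95% limit for 6 values. The genes named were the 10, the fixed pathway list, the 5 nearest patterns to the most variable of the 10, isoforms with at least 10% of a gene's median TPM (Eif4a2-211, Eif4g2-214 and other smaller models were named after their values were seen) and nested genes. The 10 genes and the lists were chosen with earlier results of these data known. Larp1 KO against Larp1 WT was planned with edgeR and not run, because no file could be tied to a labelled sample. The methods give 3 male WT and 3 male Larp1 KO mice for the cortex libraries. Which mouse number belongs to which genotype or labelled replicate was not given. The variability step was tested on simulated data. Protein sequences were not used here.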

Additional observations from a re-analysis of the deposited data

Results flagged for a closer look

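In TPM, Eif4g1 in mouse 703 (73.6) was far from the other 5 libraries, which lay between 49.8 and 57.7, with a Dixon ratio of 0.669. Of the 10 genes 1 was so placed, against 7.04% of the 15002 detected genes (1056), of which 666 had mouse 703 as the far library. In CPM the ratio for Eif4g1 was 0.505 and in TPM rescaled over nuclear protein-coding genes 0.386, both under the 95% limit for 6 values.

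In CPM, Eif4ebp1 in mouse 703 (1.845) was far below the other libraries (2.24 to 2.46), with a ratio of 0.64 on 73 counts. In CPM 5.27% of detected genes had such a library. The share of Eif4g3-202 in the TPM of Eif4g3 was 33.6% in mouse 698 and 37.8% to 39.9% in the others, the only case among 24 isoforms tested. Chance flags about 1 in 20 groups, and the cause of these 3 values was not tested.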

How the results depend on the processing

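The number of neighbouring pairs ordered alike in every library was 7 without mouse 688 and 8 without each of the others (rescaling TPM cannot change it). At the isoform with the highest median TPM, the number of genes with a TOP start stayed at 0 with a start within 5 bases (9.16% of all genes). The stricter minimum of 6 pyrimidines (1.18%) could only give 0. With RefSeq starts, chosen after seeing the data, the number was also 0 (2.51% of windows). It was 2 when any annotated isoform counted. A start within 5 bases was not counted over other isoforms or RefSeq starts, where Eif4g1-221 and the RefSeq start of Eif4g1 meet it. The number of the 10 genes among the most variable stayed at 1 with DESeq2 size factors and with no filter on low counts, was 0 with a pseudocount of 0.25 and 0 in log2(TPM + 1), and ran from 0 to 1 when each library was left out in turn (0 without mouse 678, 688 or 698). The number with a far library was 0 in rescaled TPM. In CPM it was 1, but Eif4ebp1 in place of Eif4g1. The protein-coding share was 93.84% by expected counts. The highest-to-lowest ratio moved by more than the spread for 8 of the 10 genes between TPM and CPM. Each gene's share in the summed level also moved for all 10 in CPM, which is not per length, and for 8 when coding isoforms alone were summed. The cause of these moves was not tested.

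No paired analysis was possible because mouse numbers are not the replicate numbers of the labels. Depth limits Eif4ebp1 most, with at most 102 counts a library, and the counting intervals of its highest and lowest TPM overlapped. The main limit is that genotype is unknown for every library here, so no value measured here says how Larp1 loss affects these mRNAs. The share of TPM in nuclear protein-coding genes differed between mice 700 and 703.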

Other observations

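The values of some of the 10 genes fell into separate clusters, meaning that the largest gap between the 6 ordered log2 values was wider than the range on either side of it. In CPM this held for Eif4a2, Eif4b, Eif4e2 and Eif4ebp1, 4 of the 10 genes against 40.5% of detected genes, a share near the background. Eif4b lay at 160.4, 146 and 154 CPM in mice 678, 687 and 700, and at 100.4, 105 and 111 CPM in mice 688, 698 and 703. Eif4a2 lay at 252, 258 and 236 CPM in mice 678, 687 and 700, and at 209.7, 207 and 207 CPM in mice 688, 698 and 703. Eif4e2 lay at 30.8 and 30.8 CPM in mice 698 and 703, and at 28.6, 28.8, 29.4 and 29.2 CPM in mice 678, 687, 688 and 700. For Eif4ebp1 only mouse 703 was apart, at 1.845 CPM, with 2.46, 2.32, 2.38, 2.24 and 2.25 CPM in mice 678, 687, 688, 698 and 700. In TPM the genes were Eif4a2, Eif4e2, Eif4g1 and Eif4g2 (background 38.9%), and in rescaled TPM Eif4a2, Eif4b and Eif4ebp1 (background 41.1%). No genotype was read from these values.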
